A study of Mus musculus with 12 samples.

Results

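miR-193b and miR-365 are microRNAs (miRNAs), short RNAs that lower the output of messenger RNAs carrying a matching site. They were chosen by their names on the array, mmu-miR-193b and mmu-miR-365, from 577 miRNAs measured in mouse breast cancer cell lines, partly because miR-193b was not well above background in 1 line alone. These 2 miRNAs are read by 4 of the 1712 probes of the array, 2 probes each. Both were among the 225 miRNAs tested, for which each of the 3 arrays of some line had to be well above background.

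The study compared 4 lines derived from mammary tumours that arose spontaneously in female BALB/c mice, with no treatment and no engineered allele in the labels. The lines 67NR, 168FARN and 4TO7 are labelled non-metastatic and 4T1 metastatic, and 3 one-colour Agilent arrays were run for each. Total RNA was extracted with Trizol, and 100 ng went on an array. Nothing in the labels says that repeats were grown separately, so a p-value here weighs a difference only against the scatter of these arrays, which may be technical.

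Pairing with a messenger RNA rests mainly on bases 2 to 8 of a miRNA, the seed. miR-193b is known as a repressor of urokinase, a secreted protease used by invading tumour cells, and of cyclin D1 and the oestrogen receptor, which drive division of mammary cells. In mouse, miR-193b and a copy of miR-365 are made from neighbouring genes, and this cluster is also known from the formation of brown fat. A related pair of genes makes miR-193a and a further copy of miR-365.

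By the position of each probe target relative to the RefSeq mature end, the array's miR-365 and miR-193 correspond to 3p arms and its miR-193* to the 5p arm of miR-193a. These names share chromosome 11 and gave the same offset between genome builds. miR-193b was the only such name on chromosome 16, so its 3p arm was assumed and could not be checked in this way. The mature sequences are shown, from RefSeq on GRCm38, because their likeness decides what a probe can tell apart. They run 5′ to 3′ with the seed in capitals.

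miR-193b-3p: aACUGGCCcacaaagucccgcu

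miR-193a-3p: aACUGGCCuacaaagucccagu

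miR-365-3p: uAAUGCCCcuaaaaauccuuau

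The seed ACUGGCC was held by 2 of the 1679 mouse mature miRNAs in the table, miR-193b-3p and miR-193a-3p, which the array calls miR-193. The pair agreed at 19 of 22 bases, and going from miR-193b-3p to miR-193a-3p the changes were C9U, G20A and C21G, counted from 1 at the 5′ end. The seed AAUGCCC belonged to miR-365-3p alone.

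The targets of the miR-193b probes are shown in capitals because these probes gave different answers. Each target is taken as the 3′ end of the miRNA, and the longer one begins 1 base nearer to the 5′ end.

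17-base target of miR-193b: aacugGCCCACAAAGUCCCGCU

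16-base target of miR-193b: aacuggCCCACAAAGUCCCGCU

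The array's annotation, on mm9, places the 17-base target at chr16:13449668-13449684 and the 16-base target at chr16:13449669-13449684. In the RefSeq gene table of GRCm38 the Mir193b gene lies on chromosome 16 within the span of the long non-coding RNA genes Gm32817 and Gm53058, and the next miRNA gene is Mir365-1. Whether that is exon or intron was not read from the table. With each target taken as the 3′ end, all 3 bases that separate the pair lie within both targets.

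The hairpins of both miR-365 genes are shown with the 3p arm in capitals, because their mature 3p sequences agreed at 22 of 22 bases.

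Mir365-1: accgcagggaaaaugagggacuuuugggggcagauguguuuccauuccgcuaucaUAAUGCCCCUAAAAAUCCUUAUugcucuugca

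Mir365-2: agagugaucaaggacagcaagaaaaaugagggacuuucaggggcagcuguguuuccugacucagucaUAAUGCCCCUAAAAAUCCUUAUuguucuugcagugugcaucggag

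Mir365-1 is the neighbour of Mir193b, while Mir365-2 lies on chromosome 11 next to Mir193a. The array places its 22-base and 21-base miR-365 targets on chromosome 11, at chr11:79539969-79539990 and chr11:79539970-79539990 on mm9. A miR-365 signal can come from either gene, and the genes cannot be told apart.

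A few features of the arrays bear on every comparison. The 67NR arrays and replicate 1 of 168FARN were on 1 slide and the other 8 arrays on another. Probe profiles correlated at 0.993 to 1.00 within a line and at 0.837 to 0.965 among 168FARN, 4TO7 and 4T1, but at 0.540 to 0.637 between 67NR and the other lines. The hur_5 control probes read 179.9 to 207 on the 67NR arrays and 1.25 to 6.36 on the other 9. Of 7 epithelial marker miRNAs (the miR-200 family, miR-203 and miR-205), 7 were read on no array of 168FARN, 4TO7 or 4T1 and 5 on no 67NR array, with summed signals of 24.0 to 40.3 in 67NR and 0.269 to 6.35 elsewhere. Of 4 mesenchymal markers on the array, 2 were read on all 168FARN arrays and none on all arrays of another line. Of 6 haematopoietic and 4 muscle markers, 1 each was read on all 168FARN arrays, and none was read on any array of 67NR, 4TO7 or 4T1. Of 2 endothelial markers, miR-126-3p was read on all arrays of 67NR, 4TO7 and 4T1 and on none of 168FARN. The other, miR-126-5p, was read on no array. The part of these features in the results below was not tested. The number of arrays limits the precision.

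miR-193b gave a clear signal in 4TO7 and 4T1 and none in 168FARN, by either probe, while in 67NR 1 probe read it and the other did not. The signals are processed brightness values in arbitrary units, averaged over up to 10 spots per probe. The 17-base probe read 86.1, 109.5 and 104 on the 67NR arrays, 1.45, -1.99 and 0.205 on those of 168FARN, 136.1, 133 and 156.5 on those of 4TO7, and 174, 184.9 and 152.7 on those of 4T1. It was well above background on every array but those of 168FARN, and the 67NR signals lay below those of 4TO7 and 4T1 before scaling.

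The 16-base probe read 5.09, 7.91 and 7.24 on the 67NR arrays, -0.955, 2.21 and 1.26 on those of 168FARN, 84.5, 89.6 and 99.0 on those of 4TO7, and 114.4, 118.2 and 98.98 on those of 4T1. All 6 arrays of 4TO7 and 4T1 read it well above background, and none of the other 6 did. By the detection call of this probe 67NR stands with 168FARN, although each 67NR signal lay above those of 168FARN. By the 17-base probe 67NR stands with 4TO7 and 4T1.

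**Figure D1:**
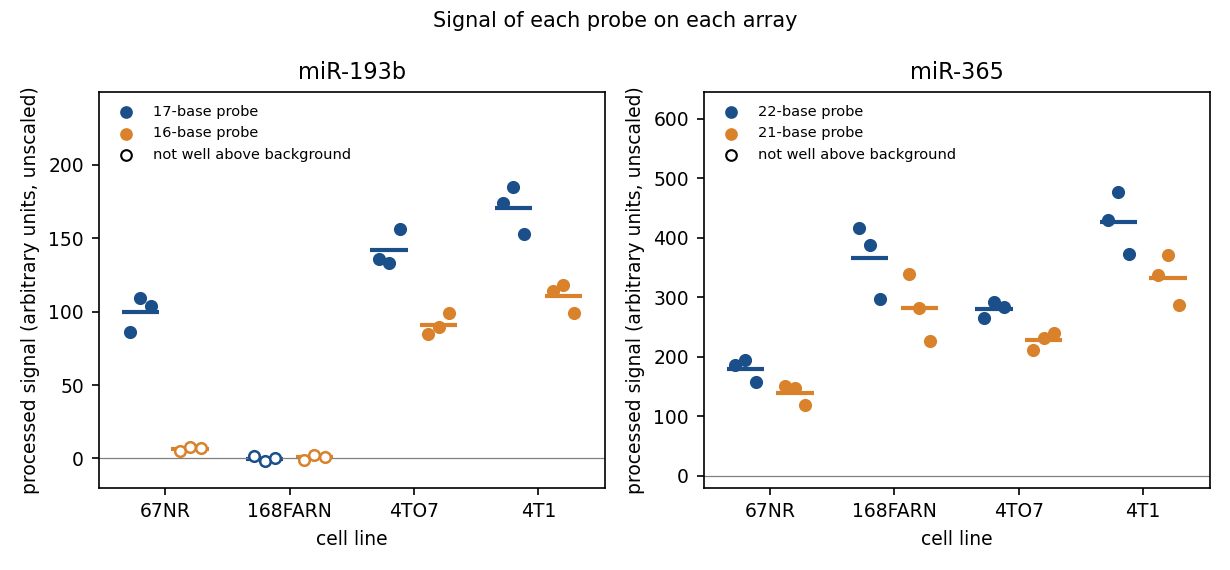
Processed signal (arbitrary units, unscaled) of both probes of miR-193b (left) and of miR-365 (right) on each of 3 arrays per line; bars are means and open points are not well above background. In 67NR the 17-base miR-193b probe reads 86.1 to 109.5 and the 16-base probe 5.09 to 7.91, while the miR-365 probes move together in all 4 lines.

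Spots within an array give the measuring error of a probe. On 67NR replicates 2 and 3 the spots of the 17-base probe varied by 5.11% and 6.65% (coefficient of variation), whereas on replicate 1 they ran from 30.6 to 117.5 and varied by 37.7%. On the arrays of 4TO7 and 4T1 the same probe varied by 2.00 to 11.2%. All the kept spots of this probe on the 67NR arrays were well above background, and no kept spot of the 16-base probe there was.

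Arrays were scaled to compare lines, each by the 75th percentile of the 170 probes that were well above background everywhere, and log2 was taken above a floor of -5.58. The difference between the probes (16-base minus 17-base) is used here only to see whether it held from line to line. It was -0.64 ± 0.06 in 4TO7 and -0.63 ± 0.02 in 4T1 (SD, n = 3), and the value in 67NR, where the 16-base probe was not read, has only an upper limit. With that probe set, on each 67NR array, at the dimmest level that counted as read, the difference there was at most -2.75. The shift from 4TO7 and 4T1 to 67NR was then at most -2.11 on the log2 scale.

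The same shift was computed for 84 miRNAs whose 2 brightest probes could be followed in these lines, the brighter one read on all 9 arrays and the other on the 6 arrays of 4TO7 and 4T1. In 67NR the dimmer probe was read on all 3 arrays for 73 of them, while for the other 11, miR-193b included, it was unread on at least 1 of them. Over the 73 the median shift was -0.06, the lowest -1.42 (miR-322) and the highest 0.28 (let-7a). None of the 73 lay below the limit of miR-193b. Shifts over 1 in size were seen in 2 of the 73 (2.74%). The 73 were kept because their dimmer probe was read in 67NR, so they cannot show how common a shift like that of miR-193b is. Over the other 11, the upper limit of the shift ran from -2.11 (miR-193b) to 2.18 (miR-709). For miR-365 the probe difference lay between -0.38 and -0.30 in all 4 lines.

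**Figure D2:**
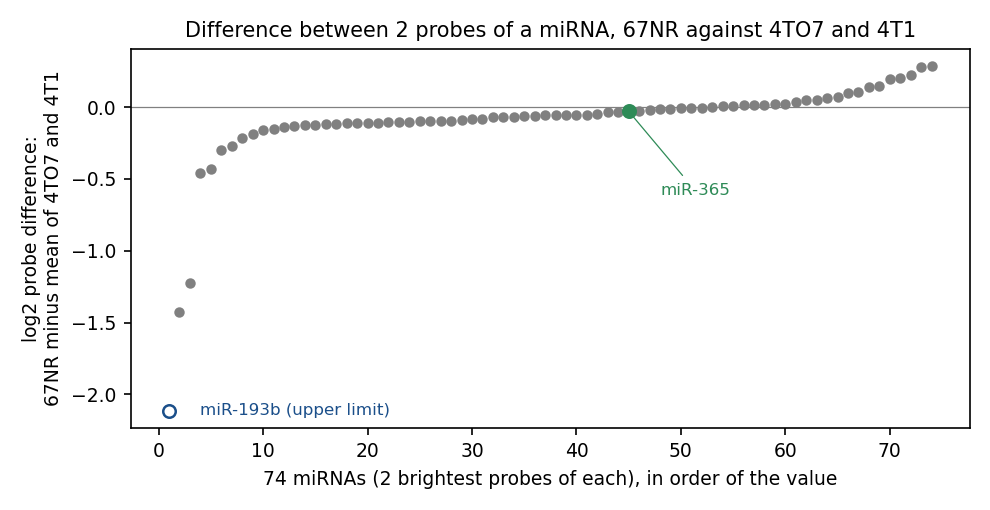
Difference between the 2 brightest probes of a miRNA (log2, dimmer minus brighter), in 67NR minus the mean of 4TO7 and 4T1, in order of the value, for 73 miRNAs whose probes were both read in 67NR and for miR-193b. miR-193b (open) is drawn at its upper limit of -2.11, the next is miR-322 at -1.42, and miR-365 lies close to 0.

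In 168FARN the absence of miR-193b was part of why it was chosen, and its values there are a description with no test. Against the floor, which stands for the unread 168FARN arrays, the 17-base probe was at least 11.3-fold higher in 67NR, at least 10.8-fold higher in 4TO7 and at least 7.85-fold higher in 4T1. The arrays of 168FARN lay apart from those of each other line for miR-193b, as they did for 86.7% of the tested miRNAs against 67NR, 72.9% against 4TO7 and 76.4% against 4T1. In bulk RNA, fewer cells that make a miRNA and less of it per cell cannot be told apart. Of the 225 tested miRNAs, 5 (2.22%) were well above background on no 168FARN array and on all 9 others. Besides miR-193b these were miR-130b, miR-126-3p, miR-340-5p and miR-340-3p, the last 2 from the arms of 1 hairpin.

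miR-126-3p, a miRNA abundant in endothelium, read 1.41 to 3.11 in 168FARN and 92.0 to 119.5 in 67NR with its brighter probe. miR-130b read 10.3 to 15.2 in 168FARN and 317.1 to 416 in 67NR. The 16-base probe alone would put miR-193b with the 13 miRNAs that were read on all arrays of 4TO7 and 4T1 and on none of 67NR and 168FARN.

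Between 4TO7 and 4T1, which shared a slide and in which both probes were read, miR-193b was lower in 4T1. The scaled log2 level of the 17-base probe was -2.15 ± 0.05 in 4TO7 and -2.60 ± 0.06 in 4T1 (SD, n = 3), and the arrays of the lines did not overlap. The difference, 4T1 minus 4TO7, was -0.46 ± 0.12 (SE; 95% confidence interval -0.72 to -0.19), a 1.37-fold lower level (limma, Benjamini-Hochberg adjusted p = 0.00661). The 16-base probe gave -0.44 ± 0.03 (limma, adjusted p = 1.37e-06). In this comparison 60.4% of the 225 miRNAs were called and 35.6% were called lower, and the arrays of the lines did not overlap for 67.6%, so a call of this kind was common.

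The direction of that difference depends on how arrays are scaled. The unscaled signals of both probes overlapped between the lines, with the higher mean in 4T1, and without scaling the difference was 0.26 (limma, adjusted p = 0.108). With the 75th percentile taken over all probes it was -0.17 (limma, adjusted p = 0.208). Of all called miRNAs, 41.2% were higher in 4T1 with the scaling used, 66.4% with the percentile of all probes, 93.8% with no scaling, 48.5% with quantile scaling and 20.1% with normexp background correction.

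Comparisons of miR-193b with 67NR turned on the probe. By the 17-base probe the log2 level in 67NR was -2.08 ± 0.32 (SD, n = 3), with the arrays at -2.42, -2.03 and -1.78. Those arrays overlapped the 4TO7 arrays, which lay between -2.21 and -2.10, and 4TO7 minus 67NR was -0.07 ± 0.12 (SE; 95% confidence interval -0.34 to 0.20; limma, adjusted p = 0.656). The 4T1 arrays, at -2.65 to -2.54, lay below all those of 67NR, and 4T1 minus 67NR was -0.53 ± 0.12 (SE; limma, adjusted p = 0.00179). Called miRNAs made up 79.6% of the 225 in each of these comparisons, 31.6% higher and 48% lower in 4TO7 and 32% higher and 47.6% lower in 4T1. Arrays that did not overlap were seen for 80% of miRNAs in 4TO7 against 67NR and for 81.3% in 4T1 against 67NR.

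By the 16-base probe miR-193b was at least 4.10-fold higher in 4TO7 than in 67NR and at least 3.02-fold higher in 4T1. The bound is the level in the bright line over the lowest level that was well above background on each 67NR array. With the 67NR arrays at the floor, the log2 differences were 2.79 (limma, adjusted p = 2.6e-13) and 2.35 (limma, adjusted p = 9.16e-13). All the 67NR arrays then hold the same value. These p-values therefore do not weigh scatter in 67NR and do not belong to the bounds. The 17-base difference between 4TO7 and 67NR also moved with single arrays. Without 67NR replicate 1, the array with uneven spots, it was -0.24 (limma, adjusted p = 0.00716), and without 67NR replicate 3 it was 0.07 (limma, adjusted p = 0.52).

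Scaling also turned these 17-base values. With the percentile of all probes, no scaling or quantile scaling, 4TO7 minus 67NR was 0.36, 0.51 and 0.51, and 4T1 minus 67NR was 0.18, 0.78 and 0.22. With a slide term 4T1 minus 67NR stayed at -0.53 while its SE rose from 0.12 to 0.23 (limma, adjusted p = 0.0591). That term rests on 168FARN, where every array stood at the floor for miR-193b, so it measures no slide effect on this probe. Because the probes and scalings differed, the data give no settled order of 67NR against 4TO7 and 4T1 for miR-193b.

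miR-365, by contrast, was read by both probes on all 12 arrays. This miRNA is best known for its place beside miR-193 genes and as a repressor of cyclin D1. The 22-base probe read 186.4, 194.4 and 157.6 on the 67NR arrays, 416.9, 387.2 and 296.7 on those of 168FARN, 265.2, 292.9 and 284.4 on those of 4TO7, and 429.4, 477.8 and 373.5 on those of 4T1. The 67NR arrays were the dimmest before scaling, and those of 168FARN and 4T1 overlapped.

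After scaling the lines lay close together. The log2 level of miR-365 was -1.23 ± 0.06 in 67NR, -1.41 ± 0.14 in 168FARN, -1.16 ± 0.09 in 4TO7 and -1.28 ± 0.06 in 4T1 (SD, n = 3). From high to low the order was 4TO7, 67NR, 4T1 and 168FARN, and the arrays of each line overlapped those of its neighbour in that order. The 4TO7 arrays lay above those of 4T1 and of 168FARN, and arrays did not overlap for 67.6% and 72.9% of the tested miRNAs in these comparisons. The 4 line means spanned 0.24, which ranked 4 from the smallest among the 225 tested miRNAs, whose median span was 2.00. For miR-193b the span was 3.50 and the rank 177, with the 17-base probe and with 168FARN held at the floor. A small span can also come from levels at the floor, as in miR-30c-2* below, but miR-365 was read in every line. The span of 0.24 places miR-365 among the most even miRNAs of the set under the scaling used. In that scaling its level is relative to the bright probes of each array.

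**Figure D3:**
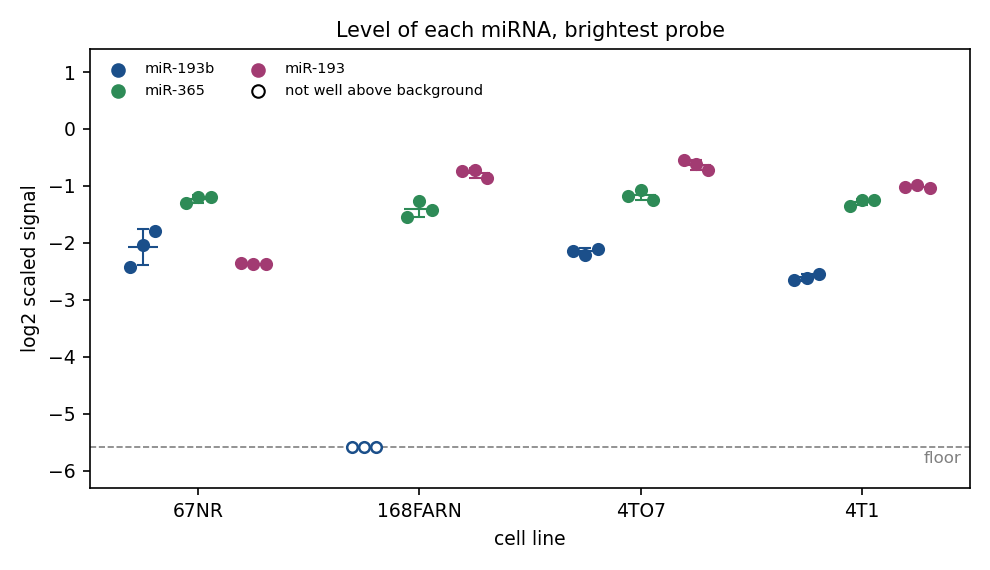
Scaled log2 signal of the brightest probe of miR-193b, miR-365 and miR-193 (miR-193a-3p) on each array; bars are the mean ± SD of 3 arrays, open points are not well above background and the dashed line is the floor at -5.58. miR-193b is at the floor in 168FARN, miR-365 stays between -1.54 and -1.07, and miR-193 is lowest in 67NR.

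No test of miR-365 between 67NR, 4TO7 and 4T1 passed with the 22-base probe. Over the 225 miRNAs 79.6% were called in 4TO7 and in 4T1 against 67NR, and 60.4% in 4T1 against 4TO7. The differences were 0.07 ± 0.07 for 4TO7 minus 67NR (SE; 95% confidence interval -0.09 to 0.22; limma, adjusted p = 0.42) and -0.05 ± 0.07 for 4T1 minus 67NR (SE; interval -0.21 to 0.10; limma, adjusted p = 0.549). For 4T1 minus 4TO7 the difference was -0.12 ± 0.07 (SE; interval -0.28 to 0.03; limma, adjusted p = 0.165). The last interval runs from 0.82-fold to 1.02-fold.

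The 21-base probe, with smaller errors, gave 0.13 ± 0.04 for 4TO7 minus 67NR (limma, adjusted p = 0.0126) and -0.18 ± 0.04 for 4T1 minus 4TO7 (limma, adjusted p = 0.00265), both calls, and -0.06 ± 0.04 for 4T1 minus 67NR (limma, adjusted p = 0.259). With the dimmest probe of each miRNA, 137 of the 225 were called in 4TO7 minus 67NR and 96 in 4T1 minus 4TO7. Scaling mattered more than the probe. Without scaling, miR-365 was higher than in 67NR by 0.65 in 4TO7 and by 1.25 in 4T1, and higher in 4T1 than in 4TO7 by 0.60.

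In 168FARN, described without a test, miR-365 was lower than in 67NR by 0.18, than in 4TO7 by 0.24 and than in 4T1 by 0.12 on the log2 scale. The direction against 67NR turned under 3 other scalings (0.30, 1.02 and 0.29). Within slide 1, 168FARN replicate 1 minus the 67NR mean was -0.31, and within slide 2 the other 168FARN arrays were -0.18 from 4TO7 and -0.06 from 4T1. Thus 168FARN, where miR-193b was unread by both probes, gave a miR-365 signal of 226.8 or more from each probe on each array.

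The scaling of an array cancels in the difference between miR-193b and miR-365 on it, save for quantile scaling. With the longer probes the mean log2 difference was -0.85 ± 0.26 in 67NR, -0.99 ± 0.14 in 4TO7 and -1.32 ± 0.04 in 4T1 (SD, n = 3). The 4T1 arrays lay below all 6 others, and those of 67NR and 4TO7 overlapped. Differences between the 3 lines gave p = 0.0464 (exact permutation test, two-sided, on the between-line sum of squares over 1680 arrangements, the smallest possible p being 0.00357).

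With the shorter probes the means were -1.32 ± 0.04 in 4TO7 and -1.58 ± 0.06 in 4T1 (SD, n = 3), and at most -3.23 in 67NR, where the 16-base probe was set in the same way. With miR-193b at the floor or at that limit the p was 0.00357, the smallest the exact permutation test allows here. The 67NR levels of miR-193b in it were set and not measured, so this p-value does not weigh scatter in 67NR. The result of the longer probes is close to the threshold. It gave p = 0.214 with quantile scaling and 0.0536 with all spots kept in the same exact permutation test, and with 1 array left out the p lay between 0.00714 and 0.121. The arrays whose removal took it above 0.05 were 67NR replicates 2 and 3, 4TO7 replicates 1 and 3 and each 4T1 array.

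**Figure D4:**
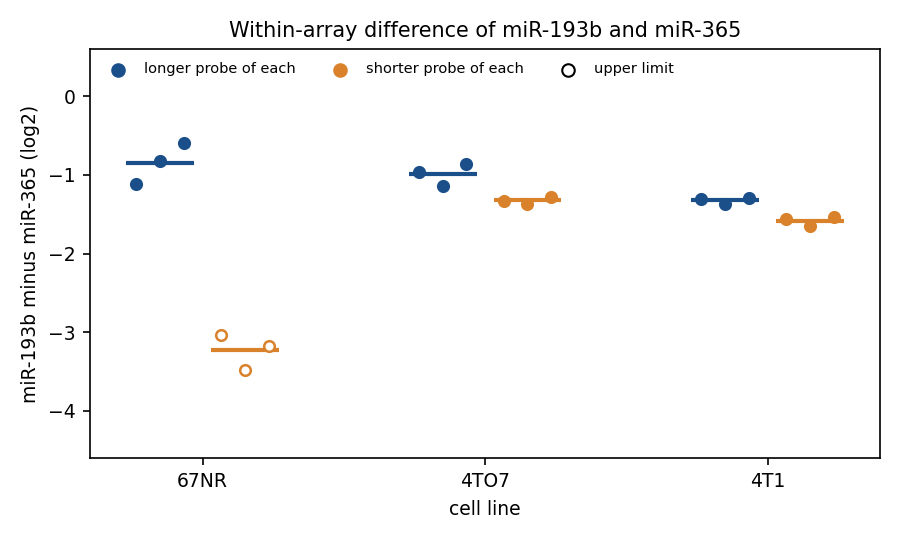
Within-array log2 difference of miR-193b minus miR-365 on the 9 arrays of 67NR, 4TO7 and 4T1, with the longer probe of each (blue) and the shorter probe of each (orange); bars are means and open points are upper limits. The longer probes give -1.37 to -1.29 in 4T1 against -1.14 to -0.60 in the other lines, and the shorter probes part 67NR from both.

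miR-193a, made beside the other miR-365 gene and sharing the seed of miR-193b, was read in all 4 lines. Its array name is miR-193, and its 17-base target lies at chr11:79525516-79525532 on mm9. The probe read 89.7, 86.8 and 69.5 on the 67NR arrays, 725, 567.2 and 434.3 on those of 168FARN, 411, 398.9 and 405.5 on those of 4TO7, and 538.7, 576 and 434.2 on those of 4T1. The 67NR signals were far below the rest, and 168FARN and 4T1 overlapped.

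The scaled log2 levels of miR-193 were -2.36 ± 0.01 in 67NR, -0.77 ± 0.08 in 168FARN, -0.63 ± 0.09 in 4TO7 and -1.01 ± 0.03 in 4T1 (SD, n = 3). Against 67NR it was 3.01-fold higher in 168FARN (limma, adjusted p = 3.93e-11), 3.32-fold higher in 4TO7 (limma, adjusted p = 1.93e-11) and 2.55-fold higher in 4T1 (limma, adjusted p = 2.04e-10). These 3 directions held and were called under all 5 scalings and background corrections run. The background share called in 168FARN against 67NR was 88%, and 40% were called higher.

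Among the other lines miR-193 was lower in 4T1 than in 4TO7 by 0.38 (log2; limma, adjusted p = 5.18e-05) and lower than in 168FARN by 0.24 (limma, adjusted p = 0.00114). The first turned to 0.34 without scaling, and the second fell to -0.01 with the percentile of all probes. 4TO7 minus 168FARN was 0.14 (limma, adjusted p = 0.025) and was not called when the fit held these 2 lines only (limma, adjusted p = 0.122). Background shares called were 73.8% for 4T1 against 168FARN and 74.2% for 4TO7 against 168FARN. Without scaling 4TO7 minus 168FARN was -0.48. With the scaling used, the order of miR-193 ran from 4TO7 and 168FARN, whose arrays overlapped, through 4T1 to 67NR. Only the place of 67NR below the rest was called under all 5 scalings and corrections.

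In 168FARN the miR-193 probe gave 434.3 or more on each array, while both miR-193b probes lay between -1.99 and 2.21. How far the probes of miR-193b and miR-193a read each other's miRNA was not tested. The 16-base probe of miR-193 was well above background on 2 of 3 arrays of 67NR, at 15.2 to 17.5, and on all 9 arrays elsewhere, at 84.7 to 161.1. The difference between the 2 miR-193 probes stayed between -2.33 and -2.13 as line means.

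miR-193*, the 5p arm of the miR-193a hairpin, was faint. Its brightest probe read 21.6 to 37.1 in 168FARN, 18.3 to 20.7 in 4TO7 and 24.7 to 30.8 in 4T1, and -3.09 to -0.19 in 67NR. All arrays of 168FARN and 4T1, 2 of 3 of 4TO7 and none of 67NR read it well above background. No fold is given against 67NR, since its level elsewhere did not clear the lowest level measured on the 67NR arrays.

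miRNAs whose 4-line pattern came nearest to that of miR-193b were miR-652, miR-340-5p, miR-130b, miR-99a and miR-181d, at a root mean square difference of 0.87 to 1.00 (log2) over the 4 centred line means. None lay close. By the same measure miR-365 ranked 73 and miR-193 150 among the tested miRNAs. The miR-193b pattern behind these ranks and nearest miRNAs takes the 17-base probe in 67NR and the floor in 168FARN. That floor is only an upper limit, and absence there was part of why miR-193b was chosen. The 16-base probe puts 67NR at the floor as well, and ranks by that probe were not computed. Nearest to miR-365 were miR-210 (0.06), miR-212, miR-338-5p, miR-30c-2* and miR-106b* (0.15), with centred line means from -0.16 to 0.31. miR-30c-2* had the same centred value, -0.02, in 67NR, 4TO7 and 4T1, and 0.07 in 168FARN. Such identical values are those of the floor, so its evenness was not measured as that of miR-365 was. Likeness over 4 line means is a description.

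Other miRNAs known to repress the same targets were followed as lists chosen with earlier results of these data in view. For urokinase the list was miR-193b, miR-193 and miR-23b. miR-23b, a miRNA also reported to repress urokinase, was 4.05-fold higher in 4T1 than in 4TO7 (limma, adjusted p = 1.51e-10). It was 3.02-fold lower in 4TO7 than in 67NR (limma, adjusted p = 1.23e-10) and 1.34-fold higher in 4T1 than in 67NR (limma, adjusted p = 2.58e-05). All 3 directions held under the 5 scalings and corrections. In 4T1 against 4TO7 the 3 members therefore split, with 1 higher and 2 lower, and the 2 lower ones, miR-193b and miR-193, are those whose direction scaling turned. The background there was 24.9% higher and 35.6% lower.

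Of 12 miRNAs known to repress cyclin D1, 1 was higher and 9 lower in 4TO7 than in 67NR, and 1 higher and 10 lower in 4T1 than in 67NR. The list medians were -2.25 and -1.92 against -0.15 and -0.05 over all tested miRNAs, and the backgrounds were 48% lower in 4TO7 and 47.6% lower in 4T1. Both list medians stayed below 0 under all 5 scalings and corrections, but the counts moved. With no scaling they became 3 higher and 7 lower in 4TO7, and 4 higher and 7 lower in 4T1. Quantile scaling gave 3 and 8 in 4TO7 and 4 and 8 in 4T1, and normexp 1 and 10 and 1 and 11. The percentile of all probes gave 3 and 8, and 2 and 8. The 10 lower in 4T1 include miR-193b by its longer probe, and its order against 67NR was not settled. By its shorter probe, with 67NR at the floor, 4T1 minus 67NR was 2.35. miR-34a, a p53-induced miRNA, was unread in 4TO7, and its test there with 4TO7 at the floor (limma, adjusted p = 6.99e-16) does not belong to the bound. It was at least 82.7-fold lower in 4TO7 than in 67NR, and 29.3-fold lower in 4T1 than in 67NR (limma, adjusted p = 5.72e-15). miR-20a of the miR-17-92 cluster was 5.94-fold and 7.27-fold lower (limma, adjusted p = 2.23e-13 and 1.01e-13). let-7b, a miRNA of differentiated cells, went the other way, 35.8-fold and 25.2-fold higher (limma, adjusted p = 6.99e-14 and 1.7e-13). miR-365 was the member outside both directions in 4T1.

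Between 4T1 and 4TO7 the cyclin D1 list was mixed, with 5 higher, 4 lower and 3 not passing and a median of -0.08 beside 0 over all. The background was 24.9% higher and 35.6% lower. With the percentile of all probes, no scaling or quantile scaling that median was above 0. miR-34a was at least 2.82-fold higher in 4T1, and miR-16 1.29-fold higher (limma, adjusted p = 4.01e-05), with both directions kept under all 5. The test of miR-34a (limma, adjusted p = 3e-10) held 4TO7 at the floor and does not belong to the bound.

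The brown fat lists put the cluster beside miRNAs of its other known role. Of 9 promoters of brown fat formation, 8 were tested. In 4TO7 against 67NR 5 were lower and 3 did not pass, and in 4T1 against 67NR 7 were lower and 1 did not pass. The backgrounds were 48% lower and 31.6% higher in 4TO7, and 47.6% lower and 32% higher in 4T1. With no scaling those counts became 3 higher and 3 lower, and 5 higher and 2 lower, so the list has no settled direction. In 168FARN against 67NR, with the members left out, 5 of 6 tested were lower and 1 did not pass. The backgrounds there were 40% higher and 48% lower, and with no scaling the counts became 3 higher and 1 lower. miR-196a, a Hox-cluster miRNA, was read in 67NR only, and was at least 36.6-fold lower in 4TO7 and at least 41.4-fold lower in 4T1. Its tests (limma, adjusted p = 2.01e-16 and 1.67e-16) held 4TO7 and 4T1 at the floor. They do not weigh scatter in those lines and do not belong to the bounds.

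Of 8 inhibitors of brown fat formation, 6 were tested. In 4T1 against 4TO7, 5 were higher and 1 lower, with a median of 0.98 beside 0 over all and a background of 24.9% higher and 35.6% lower. With normexp that median was 0.27. miR-155, a miRNA of inflammation, was 6.52-fold higher (limma, adjusted p = 1.71e-11) and miR-27b 3.92-fold higher (limma, adjusted p = 3.87e-09). miR-27a was 1.58-fold lower (limma, adjusted p = 2.62e-07), a direction that turned without scaling. The 5 higher counts stood under all 5 scalings and corrections. Against 67NR, 2 inhibitors were higher and 4 lower in 4TO7, 2 were higher and 3 lower in 4T1, and 2 were higher and 4 lower in 168FARN. The backgrounds were 31.6% higher and 48% lower in 4TO7, 32% and 47.6% in 4T1, and 40% and 48% in 168FARN. Against 168FARN, 0 were higher and 5 lower in 4TO7, and 3 were higher and 3 lower in 4T1. The backgrounds were 35.1% higher and 39.1% lower in 4TO7, and 34.2% and 39.6% in 4T1.

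Against 168FARN the members' own values are left out of the lists. miR-23b was 1.87-fold lower in 4TO7 than in 168FARN (limma, adjusted p = 4.79e-08) and 2.17-fold higher in 4T1 than in 168FARN (limma, adjusted p = 6.85e-09). It was 1.62-fold lower in 168FARN than in 67NR (limma, adjusted p = 2.87e-07), a direction kept in 4 of 5 scalings and corrections. Of the 10 other cyclin D1 repressors, 3 were higher and 5 lower in 4TO7 than in 168FARN, and 4 higher and 6 lower in 4T1 than in 168FARN, beside backgrounds of 35.1% and 34.2% higher and 39.1% and 39.6% lower. miR-195 and miR-497, made from 1 cluster, were lower than in 168FARN in both lines (limma, largest adjusted p = 2.93e-11). The fall was 11.8-fold in 4TO7 and 8.70-fold in 4T1 for miR-195, and at least 15.2-fold and 11.7-fold for miR-497. The test of miR-497 in 4TO7, where it was unread, rests on levels at or near the floor and does not belong to the bound.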

How the data were processed

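The 12 deposited scanner files hold intensity values of single spots. Per the file headers, the authors ran Agilent Feature Extraction 10.2.1.3, which took off a spatially detrended background and left arrays unscaled. The series value table holds the same deposited intensity values (largest difference 0).

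Control spots and 284 to 508 marked spots per array were left out, and no spot was saturated. Spots of a probe were averaged, and a probe counted as well above background if over 50% of its kept spots were marked so. Arrays were scaled and floored at 0.0209 (log2 -5.58) as the results describe, and the brightest probe stood for a miRNA. limma 3.58.1 in R 4.3.3 fitted 4 lines to 12 arrays (8 residual degrees of freedom), and a call needed a two-sided p below 0.05 after Benjamini-Hochberg adjustment over 225 miRNAs. Comparisons of the members with 168FARN were not tested. On simulated arrays with 225 miRNAs the fit recovered 15, 19 and 20 of 20 changes of 1.2, 1.5 and 2-fold between 4T1 and 4TO7, and 14, 19 and 20 of 20 between 4T1 and 67NR, with 1 false call in each. For 4TO7 against 67NR, where nothing was changed, it made no call.

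The members, lists and naming rule were chosen with earlier results of these data known. Named are the members, miR-193 and miR-193*, tested list members, the 5 nearest patterns and miRNAs sharing the detection pattern of miR-193b. Alternatives were other scalings, background correction, probes, floors, filters, kept spots, a slide term, the replicate number as a block, fewer lines and 1 array left out. A fit without the 67NR arrays and the upper limits for unread 67NR probes were added after seeing the data.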

Additional observations from a re-analysis of the deposited data

Results flagged for a closer look

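The hur_5 control probes, which no comparison uses, gave mean signals of 179.9, 207 and 194.1 on 67NR replicates 1, 2 and 3, against 1.25 to 6.36 on the 9 other arrays. They were singled out because a signal appeared there on 1 line only. What they target is not given in the sources used here, and their part in the 67NR values of miR-193b was not tested.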

How the results depend on the processing

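Values are log2 differences unless said otherwise. With the 75th percentile of all probes, no scaling and quantile scaling, miR-193b in 4TO7 minus 67NR turned to 0.36, 0.51 and 0.51, and in 4T1 minus 67NR to 0.18, 0.78 and 0.22. For miR-365 these settings gave 0.50, 0.65 and 0.53 (4TO7 minus 67NR, now called) and 0.66, 1.25 and 0.39 (4T1 minus 67NR). For 4T1 minus 4TO7 the first 2 settings gave -0.17 and 0.26 for miR-193b, 0.16 and 0.60 for miR-365, and no scaling gave 0.34 for miR-193. Without scaling miR-193 in 4TO7 minus 168FARN was -0.48. miR-365 in 168FARN minus 67NR became 0.30, 1.02 and 0.29, minus 4TO7 0.37 without scaling and minus 4T1 -0.35 with the percentile of all probes.

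The median over all miRNAs moved with the scaling too, to 0.34 for 4T1 minus 4TO7 without scaling, and to -0.47, -0.62 and -0.18 for 4TO7 minus 67NR, 4T1 minus 67NR and 4T1 minus 4TO7 with normexp. normexp gave -0.19 for miR-193b (called) and -0.012 for miR-365 in 4TO7 minus 67NR, and -0.17 for miR-365 in 4T1 minus 67NR (called).

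The mean of all probes gave 0.55 and 0.10 for miR-193b in 4TO7 and 4T1 minus 67NR, and -0.15 for miR-365 in 4T1 minus 4TO7 (called). The dimmer probe gave 2.79 and 2.35 for miR-193b, with 67NR at the floor. For miR-365 it gave 0.13 (4TO7 minus 67NR) and -0.18 (4T1 minus 4TO7), both called. With a slide term miR-193b in 4T1 minus 67NR stayed at -0.53 with a larger SE (0.23) and was no longer called, and miR-365 in 4TO7 minus 67NR was -0.13.

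The lower bounds of miR-193b over 168FARN move with the floor. In 67NR, 4TO7 and 4T1 they were 2.50, 2.43 and 1.97 with a doubled floor, 4.00, 3.93 and 3.47 with a halved one, 1.82, 1.63 and 1.14 with normexp, 2.59, 3.14 and 2.69 with the mean of probes, 3.01, 3.37 and 3.20 with the percentile of all probes, and 2.76, 3.27 and 3.53 without scaling. Quantile scaling gave 2.96 in 67NR and 3.18 in 4T1, and the dimmer probe 2.79 in 4TO7 and 2.35 in 4T1, with no value in 67NR, where it was unread.

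The exact permutation p of miR-193b minus miR-365 was 0.214 with quantile scaling, 0.0536 with all spots kept, and 0.00714 to 0.121 with 1 array left out. Leaving out 1 array moved miR-193b between -0.24 and 0.07 (4TO7 minus 67NR; 0.0744 without 67NR replicate 3), -0.70 and -0.38 (4T1 minus 67NR) and -0.49 and -0.43 (4T1 minus 4TO7), and miR-365 between 0.02 and 0.11, -0.09 and -0.02, and -0.16 and -0.08. Where no cause is named above, the cause was not tested.

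Samples with the same replicate number did not deviate together (correlations from -0.78 to 0.51, over 0.1 in 6 of 18 pairs), so the numbers do not pair the arrays. With the replicate number as a block, 4T1 minus 4TO7 for miR-193b was -0.46 (limma, adjusted p = 0.00614), and no call of miR-193b, miR-365 or miR-193 changed. Without the 67NR arrays it was -0.46 (limma, adjusted p = 3.49e-05). Signal over background limits miR-193b in 168FARN, and in 67NR for the 16-base probe, to bounds.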
